A study of Mus musculus with 12 samples.

Results

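Toll-like receptors (TLRs) are the pattern receptors through which dendritic cells (DCs), which take up antigen and present it to T cells, sense microbial products. The genes followed here are the 10 rows with the symbols Tlr1, Tlr2, Tlr3, Tlr4, Tlr6, Tlr7, Tlr8, Tlr9, Tlr11 and Tlr13, out of 32190 rows in each of the 2 count tables, and all 10 held enough counts to be tested in both tables. The 12 mouse RNA-seq libraries form 6 groups of 2. Late and early tumoral DCs were sorted at day 14 and at day 7 from WT-labelled mice that bore tumors of MC38, a colon carcinoma line, and whose Zbtb46 locus drove TdTomato, Zbtb46 being a transcription factor that marks conventional DCs. Bone marrow-derived DCs (BMDCs) of mice labelled Pde5-/- and of WT mice were either given lipopolysaccharide (LPS, 200 ng/ml for 12 h) or left unstimulated, which gave the groups knockout-labelled with LPS, WT with LPS, knockout-labelled unstimulated and WT unstimulated. Pde5 is a phosphodiesterase that degrades cyclic GMP, and LPS is the bacterial ligand of TLR4. Nothing in the labels states that both libraries of a group are separate animals or cultures, so p-values measure the spread between these samples, which may be technical.

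A TLR binds its ligand with leucine-rich repeats and signals through a cytoplasmic TIR domain, which recruits the adaptors MyD88 or TRIF to drive NF-kB and interferon regulatory factors. TLR1, TLR2, TLR4 and TLR6 sit at the cell surface and read lipoproteins and LPS, whereas TLR3, TLR7, TLR8, TLR9 and TLR13 sit in endosomes and read nucleic acids. TLR11 is an endosomal receptor for a protein, the profilin of Toxoplasma, and mouse type 1 conventional DCs (cDC1) are known for TLR3 and TLR11.

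Total counts were 14.2 to 19.3 M per tumoral library and 16.1 to 19.7 M per BMDC library. Levels are given as CPM (counts scaled to a common library size) on 1 TMM scale over all 12 libraries, differences as log2 fold changes with their SE from edgeR's quasi-likelihood test, and p-values are adjusted over all genes tested with the Benjamini-Hochberg method and called under 0.05. Pde5a, the gene named in the genotype label, had 22 to 61 counts in the 4 knockout-labelled BMDC libraries and 20 to 55 counts in the 4 WT BMDC libraries. These ranges overlap, so the counts over the whole gene do not check the genotype label, and the cells are called knockout-labelled throughout. None of the 8 markers of conventional DCs listed for the check of cell type (Zbtb46, Flt3, Itgax, H2-Aa, H2-Ab1, Cd74, Ciita and Dpp4) was at 0 in any library. The same held for the listed macrophage and monocyte markers, so this check does not tell cell types apart.

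The genes lie on 7 chromosomes of mm10, with positions from RefSeq genes, and strands and exons from GENCODE M21. Tlr2 lies on chromosome 3 (83836272 to 83841824, minus strand), Tlr4 on chromosome 4 (66827551 to 66846581, plus strand) and Tlr9 on chromosome 9 (106222598 to 106226876, plus strand). Tlr1 (64924680 to 64933600) and Tlr6 (64953092 to 64970942) are neighbours on the minus strand of chromosome 5, and 13.6% of the 50-base stretches of Tlr1 exons also occur in Tlr6 exons. Their counts are therefore uncertain to the extent that reads were split between them or dropped. Tlr3 lies on chromosome 8 (45395665 to 45411075, minus strand) and shares exonic bases with Gm45542 on the opposite strand, whose reads cannot be told apart without a known strand setting. Tlr11 lies on chromosome 14 (50357914 to 50363663, plus strand), and Tlr7 (167303380 to 167330574), Tlr8 (167241123 to 167264329) and Tlr13 (106143275 to 106160493) lie on chromosome X.

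The promoters of 4 of the 5 members called with LPS in WT below are shown, Tlr2 and Tlr9 as genes that were higher and Tlr3 and Tlr11 as genes that were lower. Tlr1, the other called member, has 2 RefSeq starts, 1 with a GAGGAA match and 1 with no match to the motifs described here, and is not printed. Each is the 250 bases before the start annotated by RefSeq on GRCm38.p6 (the assembly of mm10), read 5′ to 3′ on the strand of the gene: chr3:83841609-83841858 minus strand for Tlr2, chr9:106222348-106222597 plus strand for Tlr9, chr8:45410381-45410630 minus strand for Tlr3 and chr14:50357664-50357913 plus strand for Tlr11. For Tlr2 and Tlr3, the RefSeq gene position given above reaches further upstream than this start, so that this stretch lies within its gene in whole or in part.
Tlr2: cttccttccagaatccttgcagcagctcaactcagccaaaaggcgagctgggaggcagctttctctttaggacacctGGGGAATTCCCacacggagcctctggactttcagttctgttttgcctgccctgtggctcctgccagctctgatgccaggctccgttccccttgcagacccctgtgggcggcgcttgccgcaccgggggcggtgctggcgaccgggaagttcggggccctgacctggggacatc
Tlr9: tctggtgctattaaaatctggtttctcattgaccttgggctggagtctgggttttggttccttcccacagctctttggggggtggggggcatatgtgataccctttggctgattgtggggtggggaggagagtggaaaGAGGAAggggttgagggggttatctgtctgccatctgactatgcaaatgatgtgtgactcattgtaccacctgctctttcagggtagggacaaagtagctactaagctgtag
Tlr3: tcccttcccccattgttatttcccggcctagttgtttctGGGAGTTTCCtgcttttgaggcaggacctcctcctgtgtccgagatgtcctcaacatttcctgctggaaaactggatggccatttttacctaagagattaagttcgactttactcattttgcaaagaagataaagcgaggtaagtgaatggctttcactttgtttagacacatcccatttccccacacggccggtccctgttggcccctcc
Tlr11: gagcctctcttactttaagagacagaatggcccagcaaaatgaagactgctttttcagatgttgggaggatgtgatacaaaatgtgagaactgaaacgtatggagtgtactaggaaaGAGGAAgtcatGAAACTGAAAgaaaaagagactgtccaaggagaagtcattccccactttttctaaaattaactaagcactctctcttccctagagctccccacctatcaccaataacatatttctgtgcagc
Capitals mark matches, on either strand, to the NF-kB consensus, to GAGGAA (the core of the motif of PU.1, a myeloid transcription factor) and to GAAA followed by any 2 bases and GAAA (the interferon-stimulated response element, ISRE). The motifs were chosen after the sequences had been seen. Tlr2 held 2 overlapping NF-kB matches and Tlr3 held 1, Tlr9 held 1 GAGGAA, and Tlr11 held 1 GAGGAA and 1 ISRE match beside it that did not overlap it. RefSeq promoters were matched for 8 of the 10 genes, with 10 entries in all. Of 32841 mouse promoters of the same length, 7.25% held the NF-kB match, 23.3% held GAGGAA and 2.98% held the ISRE match. A match describes letters and shows no binding.

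Per kilobase of exon, which allows genes to be compared, the members differed widely in level. Tlr2 was the highest member in both tumoral groups, at 116 ± 8.7 CPM per kb in late and 133 ± 87 CPM per kb in early tumoral DCs (SD, n = 2 each). Tlr9 was the highest in all 4 BMDC groups, at 49.3 ± 4.3 CPM per kb in knockout-labelled BMDCs with LPS, 54.0 ± 3.6 in WT with LPS, 38.9 ± 4.7 in knockout-labelled unstimulated and 33.2 ± 0.31 in WT unstimulated BMDCs (SD, n = 2 each). Tlr13, which reads bacterial ribosomal RNA, ranked 2 or 3 in every group, and Tlr1 ranked 4 in every group. The lowest member was Tlr11 in late tumoral DCs and in both LPS groups, and Tlr6 in early tumoral DCs and in both unstimulated groups.

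**Figure D1:**
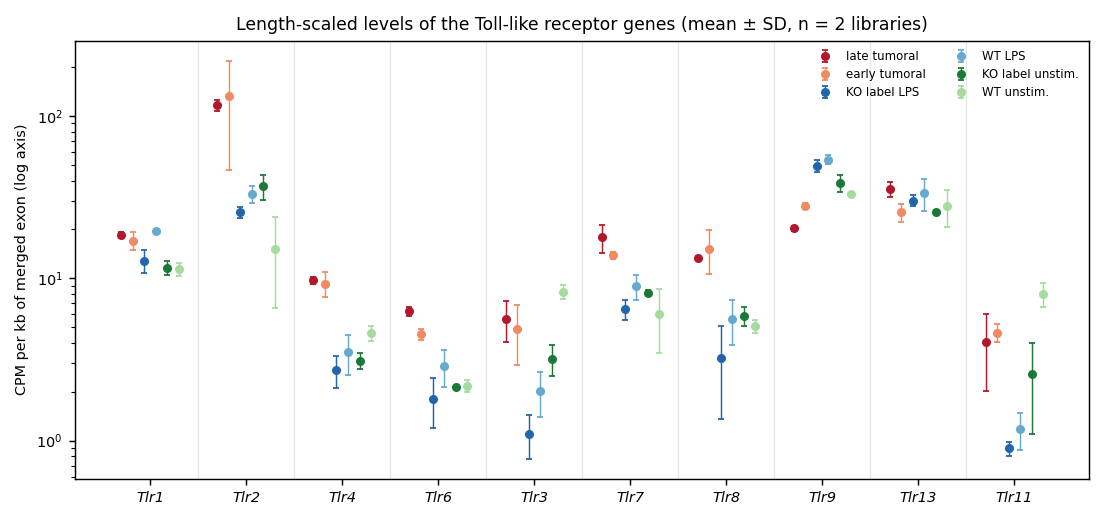
Level of each Toll-like receptor gene in CPM per kb of merged GENCODE M21 exon (log axis), as mean ± SD of the 2 libraries of each of the 6 groups. Tlr2 tops the tumoral groups at 116 and 133 CPM per kb, and Tlr9 tops the BMDC groups at 33.2 to 54.0 CPM per kb.

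LPS in WT BMDCs went with opposite differences among the members. Tlr1, Tlr2 and Tlr9 rose, Tlr3 and Tlr11 fell, and Tlr4, Tlr6, Tlr7, Tlr8 and Tlr13 did not pass the test. The 5 called members of 10 stand beside 37.6% of all 13072 tested genes called in this comparison, 20% as higher and 17.6% as lower, so the share called is near the background. The median log2 fold change of the 10 members was 0.34, against -0.02 over all tested genes. Overlap between libraries, here and in the other BMDC comparisons, only describes the values. The share of all tested genes whose groups did not overlap was not counted.

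Tlr2, the lipoprotein receptor that pairs with TLR1 or TLR6, had 109 and 91.9 CPM in WT BMDCs with LPS, against 27.5 and 64.1 CPM in WT unstimulated BMDCs. The groups did not overlap, but the unstimulated libraries differed from each other by more than the LPS libraries did. The log2 fold change was 1.13 ± 0.36 (SE; edgeR adjusted p = 0.0453), and it was 0.65 without WT unstimulated replicate 1 and 1.87 without WT unstimulated replicate 2 (adjusted p = 0.0299 and 0.00251). This call was lost without either LPS library (adjusted p = 0.154 and 0.0836), with library size alone (0.0818), with no filter on low counts (0.178), with the replicate block (0.0796) and in the fit of all 12 libraries (0.0959).

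Tlr1 had 65.5 and 66.0 CPM in WT BMDCs with LPS, against 35.6 and 40.7 CPM in WT unstimulated BMDCs. Both LPS libraries were above both unstimulated ones, and the log2 fold change was 0.78 ± 0.14 (SE; edgeR adjusted p = 0.00302). Tlr6, the other partner of TLR2, had 12.7 and 8.78 CPM in WT BMDCs with LPS, against 8.57 and 7.61 CPM in WT unstimulated BMDCs (log2 fold change 0.41 ± 0.26, adjusted p = 0.257). For both genes the stretch of exon shared between them limits what the counts say of each alone. Tlr4, the receptor for LPS itself, had 23.3 and 15.7 CPM in WT BMDCs with LPS, against 23.6 and 27.5 CPM in WT unstimulated BMDCs. Both LPS libraries lay below both unstimulated ones, yet the log2 fold change of -0.40 ± 0.22 did not pass the test (SE; edgeR adjusted p = 0.191).

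Among the endosomal receptors, Tlr9, which reads unmethylated CpG DNA, had 197 and 179 CPM in WT BMDCs with LPS, against 115 and 116 CPM in WT unstimulated BMDCs. Its log2 fold change was 0.70 ± 0.11 (SE; edgeR adjusted p = 0.00243), with no overlap between the groups. Tlr3, which reads long double-stranded RNA and signals through TRIF, had 12.9 and 8.22 CPM in WT BMDCs with LPS, against 46.0 and 40.2 CPM in WT unstimulated BMDCs. It was lower in both LPS libraries, with a log2 fold change of -2.03 ± 0.27 (SE; edgeR adjusted p = 0.00112).

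Tlr7, a receptor for RNA from viruses and other sources, had 41.2 and 32.0 CPM in WT BMDCs with LPS, against 17.2 and 32.0 CPM in WT unstimulated BMDCs. The log2 fold change of 0.57 ± 0.27 did not pass (SE; edgeR adjusted p = 0.139), and it came to 1.08 with an adjusted p of 0.00897 without WT unstimulated replicate 2. Tlr8, its neighbour on chromosome X and in humans likewise a receptor for RNA, had 24.7 and 15.8 CPM in WT BMDCs with LPS, against 19.4 and 17.0 CPM in WT unstimulated BMDCs. Those groups overlapped (log2 fold change 0.15 ± 0.38, SE), as did those of Tlr13, which had 168 and 121 CPM in WT BMDCs with LPS, against 141 and 97.9 CPM in WT unstimulated BMDCs (0.27 ± 0.20, SE). Tlr11 had 4.58 and 3.15 CPM in WT BMDCs with LPS, against 23.1 and 29.5 CPM in WT unstimulated BMDCs. Its log2 fold change of -2.77 ± 0.39 was the largest of the 10 in size (SE; edgeR adjusted p = 0.00163).

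**Figure D2:**
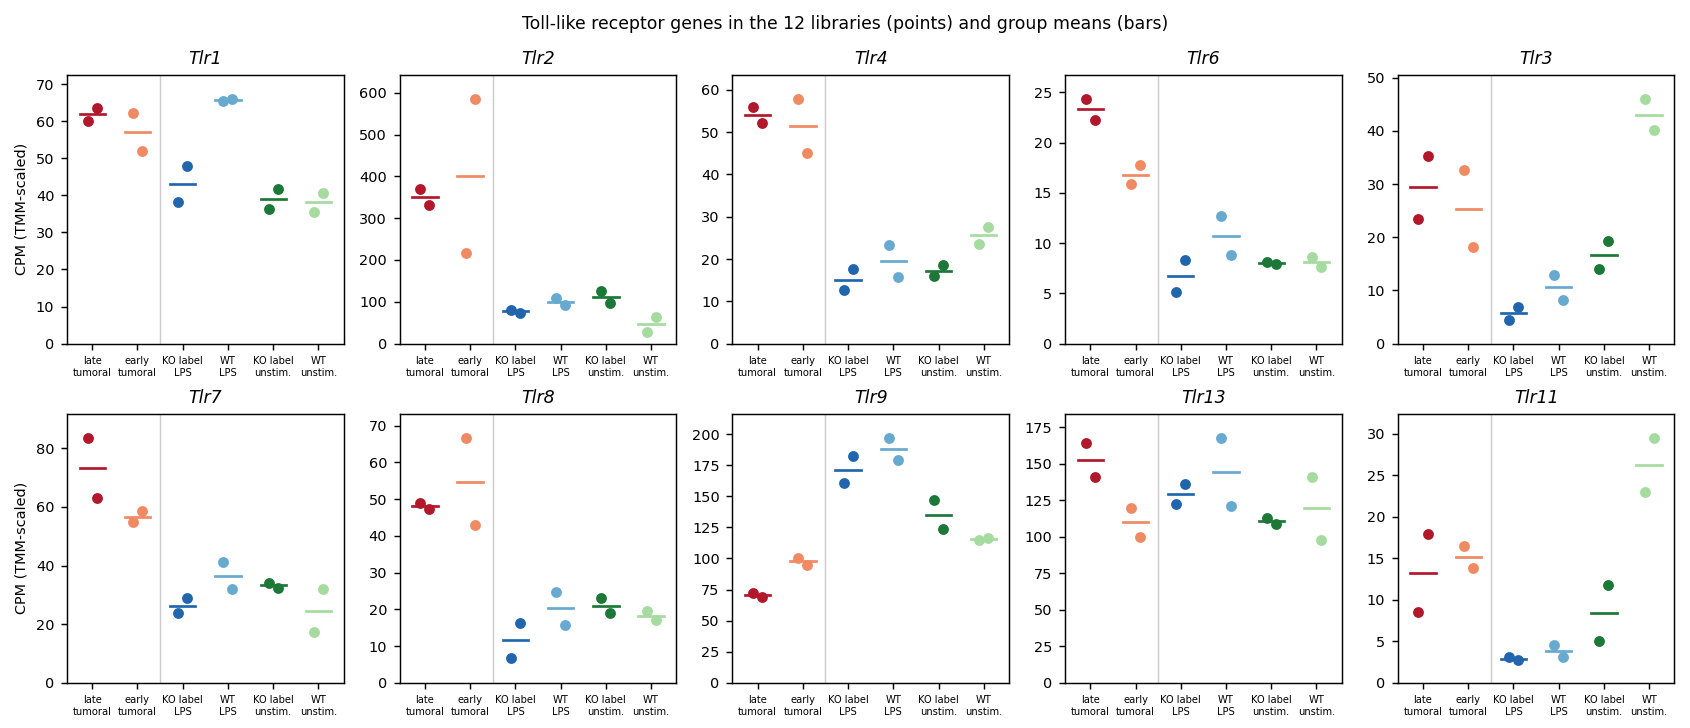
Level in CPM (TMM-scaled, linear axes from 0) of each Toll-like receptor gene in the 12 libraries, with 1 point per library and a bar at the mean of each group. Tlr3 and Tlr11 stand highest in WT unstimulated BMDCs (40.2 to 46.0 and 23.1 to 29.5 CPM), and Tlr2 stands higher in every tumoral library (216 to 585 CPM) than in any BMDC library (27.5 to 126 CPM).

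Tlr3 and Tlr11 were also the members that edgeR called between the genotype labels without stimulation. Tlr3 had 14.1 and 19.3 CPM in knockout-labelled unstimulated BMDCs, against the 46.0 and 40.2 CPM of WT unstimulated BMDCs, and fell by 1.37 ± 0.26 on the log2 scale (SE; edgeR adjusted p = 0.0106). Tlr11 had 4.998 and 11.8 CPM in knockout-labelled unstimulated BMDCs, against 23.1 and 29.5 CPM in WT unstimulated BMDCs, and fell by 1.65 ± 0.36 (SE; edgeR adjusted p = 0.0199). Both knockout-labelled libraries were below both WT libraries for each gene. The labels did not overlap for Tlr2, Tlr4, Tlr7 and Tlr9 either, which were not called, so lack of overlap adds no support to the 2 calls. These 2 lower and 0 higher of 10 stand beside 18% of all tested genes called, 5.98% as lower and 12% as higher, a share near the background. The Tlr3 call was lost without knockout-labelled unstimulated replicate 1 (adjusted p = 0.0898) and the Tlr11 call without WT unstimulated replicate 2 (adjusted p = 0.101).

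Tlr2 had 126 and 97.5 CPM in knockout-labelled unstimulated BMDCs, against 27.5 and 64.1 CPM in WT unstimulated BMDCs. Its log2 fold change of 1.28 ± 0.36 missed the threshold (SE; edgeR adjusted p = 0.0508), and passed with DESeq2 (adjusted p = 0.000164) and without WT unstimulated replicate 1 (0.80, adjusted p = 0.0259) or replicate 2 (2.02, adjusted p = 0.00514). Tlr4 had 15.9 and 18.6 CPM in knockout-labelled unstimulated BMDCs, against 23.6 and 27.5 CPM in WT unstimulated BMDCs, a log2 fold change of -0.57 ± 0.22 (SE; edgeR adjusted p = 0.106). The other 6 members had log2 fold changes between -0.11 and 0.43 and adjusted p of at least 0.204, and Tlr1, for example, had 36.2 and 41.7 CPM in knockout-labelled unstimulated BMDCs, against 35.6 and 40.7 CPM in WT unstimulated BMDCs. Tlr6 had 8.07 and 7.96 CPM and Tlr13 had 113 and 109 CPM in knockout-labelled unstimulated BMDCs, against 8.57 and 7.61 CPM and 141 and 97.9 CPM in WT unstimulated BMDCs, and both genes overlapped between the labels. Tlr8 had 23.1 and 19.0 CPM in knockout-labelled unstimulated BMDCs, against 19.4 and 17.0 CPM in WT unstimulated BMDCs, and Tlr7 had 34.0 and 32.5 CPM in knockout-labelled unstimulated BMDCs, against 17.2 and 32.0 CPM in WT unstimulated BMDCs. Without WT unstimulated replicate 2, Tlr7 passed (log2 fold change 0.95, adjusted p = 0.0325). This comparison and that of LPS in WT share the WT unstimulated libraries, so their values are not independent of each other.

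In knockout-labelled BMDCs, LPS against no stimulation gave 0 called members of 10 by edgeR, with 0% of all tested genes called. At an unadjusted p under 0.05 there were 3 members (Tlr3, Tlr9 and Tlr11) and 2800 genes, and DESeq2 called 2 members (Tlr3 and Tlr11) and 793 genes. Tlr3 had 4.52 and 6.96 CPM in knockout-labelled BMDCs with LPS, against 14.1 and 19.3 CPM in knockout-labelled unstimulated BMDCs (log2 fold change -1.54 ± 0.28, SE; edgeR adjusted p = 0.0703). Tlr11 had 3.14 and 2.72 CPM in knockout-labelled BMDCs with LPS, against 4.998 and 11.8 CPM in knockout-labelled unstimulated BMDCs (-1.52 ± 0.41, SE; edgeR adjusted p = 0.106). For both genes the groups did not overlap, and without knockout-labelled unstimulated replicate 1 both passed (adjusted p = 0.0297 for Tlr3 and 0.0148 for Tlr11). Without knockout-labelled unstimulated replicate 2 the Tlr11 value was -0.77 (adjusted p = 0.497). Tlr9 had 161 and 182 CPM in knockout-labelled BMDCs with LPS, against 147 and 123 CPM in knockout-labelled unstimulated BMDCs (0.34 ± 0.11, SE; edgeR adjusted p = 0.146). Tlr2 had 81.1 and 72.4 CPM in knockout-labelled BMDCs with LPS, against 126 and 97.5 CPM in knockout-labelled unstimulated BMDCs, a log2 fold change of -0.54 ± 0.35 (SE; edgeR adjusted p = 0.414). Its 2 LPS libraries were thus the lower ones here and the higher ones in WT. Tlr13 had 122 and 137 CPM in knockout-labelled BMDCs with LPS, against 113 and 109 CPM in knockout-labelled unstimulated BMDCs (0.22 ± 0.20, SE; edgeR adjusted p = 0.548).

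Between the genotype labels with LPS, edgeR called 0 of the 10 members and 0% of all tested genes, with 3 members (Tlr1, Tlr3 and Tlr6) and 1330 genes at an unadjusted p under 0.05. DESeq2 called 1 member, Tlr1 (adjusted p = 0.0398), and 150 genes. Tlr1 had 38.2 and 47.9 CPM in knockout-labelled BMDCs with LPS, against 65.5 and 66.0 CPM in WT BMDCs with LPS, a log2 fold change of -0.61 ± 0.13 (SE; edgeR adjusted p = 0.240). All 10 log2 fold changes were negative, from -0.88 to -0.13, with a median of -0.44 against -0.01 over all tested genes. Over the alternatives that of Tlr13 ran from -0.37 to 0.09. The members share the same libraries and the share of all tested genes below 0 was not counted, so the common sign was not tested. Tlr6 had 5.13 and 8.36 CPM in knockout-labelled BMDCs with LPS, against 12.7 and 8.78 CPM in WT BMDCs with LPS. Tlr4 had 12.7 and 17.5 CPM in knockout-labelled BMDCs with LPS, against 23.3 and 15.7 CPM in WT BMDCs with LPS, and its groups overlapped. For Tlr7 the levels were 23.8 and 28.8 CPM in knockout-labelled BMDCs with LPS, against 41.2 and 32.0 CPM in WT BMDCs with LPS, and for Tlr8 they were 6.82 and 16.3 CPM in knockout-labelled BMDCs with LPS, against 24.7 and 15.8 CPM in WT BMDCs with LPS.

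The test of the difference between the LPS effects under the 2 labels, that is the knockout-labelled minus the WT log2 fold change, called 0 of the 10 members, beside 4.48% of all tested genes (0.566% higher and 3.91% lower). At an unadjusted p under 0.05 there were 3 members (Tlr1, Tlr2 and Tlr7) and 2789 genes. DESeq2 called 1 member, Tlr2 (adjusted p = 0.00141), and 1082 genes. The largest difference by size was that of Tlr2, -1.67 ± 0.50 (SE; edgeR adjusted p = 0.119), and it passed without WT unstimulated replicate 1 (-1.18, adjusted p = 0.0356) and without replicate 2 (-2.41, adjusted p = 0.0184). Tlr1 differed by -0.64 ± 0.19 (SE; edgeR adjusted p = 0.101) and Tlr11 by 1.25 ± 0.56 (SE; edgeR adjusted p = 0.251). Tlr1 passed with no filter on low counts (-0.64, adjusted p = 0.0389). Tlr11 passed without knockout-labelled unstimulated replicate 2 (1.99, adjusted p = 0.0207) and came to 0.78 without replicate 1 (adjusted p = 0.405), and Tlr7 passed without WT unstimulated replicate 2 (-1.42, adjusted p = 0.0403).

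**Figure D3:**
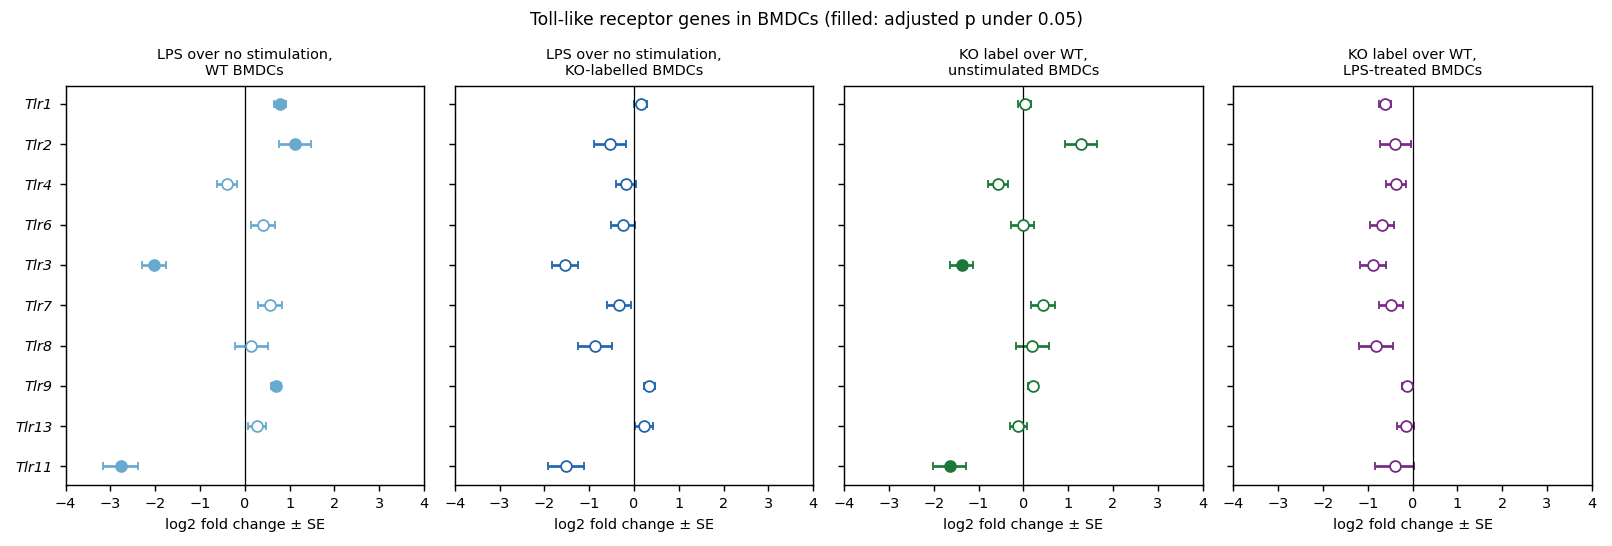
Log2 fold change ± SE of each Toll-like receptor gene in 4 comparisons of the BMDC groups (2 libraries each), filled where the adjusted p was under 0.05. Filled points are Tlr1, Tlr2 and Tlr9 above 0 and Tlr3 and Tlr11 below 0 for LPS in WT, and Tlr3 and Tlr11 below 0 for the knockout label without stimulation.

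The order of the 4 BMDC groups differed between members. The mean of Tlr3 was 5.74 ± 1.73 CPM in knockout-labelled BMDCs with LPS, 10.6 ± 3.30 CPM in WT with LPS, 16.7 ± 3.68 CPM in knockout-labelled unstimulated and 43.1 ± 4.14 CPM in WT unstimulated BMDCs (SD, n = 2 each). Tlr11 had the same order, at 2.93 ± 0.293, 3.87 ± 1.01, 8.38 ± 4.78 and 26.3 ± 4.54 CPM in these groups (SD, n = 2 each). For both genes the step between the 2 unstimulated groups was the only one between neighbours in this order that passed the test by edgeR. Tlr9 had its higher means in the LPS groups, with 171 ± 15.1 CPM in knockout-labelled BMDCs with LPS, 188 ± 12.6 CPM in WT with LPS, 135 ± 16.5 CPM in knockout-labelled unstimulated and 116 ± 1.06 CPM in WT unstimulated BMDCs (SD, n = 2 each). Tlr2 was highest in knockout-labelled unstimulated BMDCs, at 112 ± 19.9 CPM, against 76.7 ± 6.19 CPM in knockout-labelled with LPS, 100.3 ± 12.0 CPM in WT with LPS and 45.8 ± 25.9 CPM in WT unstimulated BMDCs (SD, n = 2 each). Tlr1 was highest in WT BMDCs with LPS, at 65.8 ± 0.370 CPM, and lay between 38.2 and 43.1 CPM in the other 3 groups. For the 8 members other than Tlr3 and Tlr11, no neighbours in the order of means passed the test by edgeR. Among these neighbours, Tlr1 in knockout-labelled BMDCs with LPS and in WT BMDCs with LPS did not overlap and was called by DESeq2, as given above. Other neighbours did not overlap either. Among them were Tlr2 in knockout-labelled with LPS and WT unstimulated BMDCs, and Tlr9 in knockout-labelled BMDCs with LPS and without stimulation. DESeq2 called 5 members between knockout-labelled BMDCs with LPS and WT unstimulated BMDCs. Across this order, knockout-labelled BMDCs with LPS differed from WT unstimulated BMDCs for Tlr9 (log2 fold change 0.57 ± 0.11, SE; edgeR adjusted p = 0.00489), Tlr3 (-2.91 ± 0.28, SE; 0.000342), Tlr11 (-3.16 ± 0.40, SE; 0.000875) and Tlr4 (-0.76 ± 0.22, SE; 0.0243), 1 higher and 3 lower of 10 members, beside 42.9% of all tested genes called, 22% as higher and 20.9% as lower. The Tlr4 call was lost without WT unstimulated replicate 2 (adjusted p = 0.114) and without knockout-labelled LPS replicate 1 (adjusted p = 0.149).

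Few genes passed the edgeR test between knockout-labelled unstimulated BMDCs and WT BMDCs with LPS. It called 0 of the 10 members and 1 of the 13072 tested genes (0.00765%). At an unadjusted p under 0.05 there were 4 members (Tlr1, Tlr3, Tlr9 and Tlr11) and 2187 genes. DESeq2 called 2 members (Tlr1 and Tlr9) and 482 genes. Few calls with 2 libraries per group do not show that the groups are alike. The largest differences of the members in this comparison were 1.12 ± 0.39 for Tlr11 and -0.75 ± 0.13 for Tlr1 (SE; edgeR adjusted p = 0.227 and 0.0934).

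Several cell type markers moved with Tlr3 and Tlr11, and in bulk RNA fewer cells of a type and less RNA per cell cannot be told apart. Of the 10 listed cDC1 markers, 6 fell and 3 rose with LPS in WT BMDCs, and 3 fell and 2 rose under the knockout label without stimulation. Over all tested genes, 17.6% fell and 20% rose with LPS in WT, and 5.98% fell and 12% rose under the label. Clec9a, a receptor for dead cells on cDC1, had 7.71 and 11.5 CPM in WT BMDCs with LPS and 12.1 and 13.7 CPM in knockout-labelled unstimulated BMDCs, against 39.4 and 49.0 CPM in WT unstimulated BMDCs. It fell by 2.21 ± 0.22 with LPS in WT (SE; edgeR adjusted p = 0.000396) and by 1.78 ± 0.22 under the knockout label (SE; edgeR adjusted p = 0.00181). Irf8 and Batf3, the transcription factors of cDC1, rose with LPS in WT (log2 fold changes 0.66 ± 0.15 and 0.44 ± 0.12, SE; edgeR adjusted p = 0.0106 and 0.0170). The summed level of the 10 markers was 2148 to 2576 CPM in WT BMDCs with LPS, 2492 to 2880 CPM in knockout-labelled unstimulated BMDCs and 2025 to 2192 CPM in WT unstimulated BMDCs, with none at 0. Markers of mature migratory DCs rose in 7 of 8 cases with LPS in WT and in 6 of 8 under the knockout label without stimulation, among them Ccr7 with LPS (1.24 ± 0.17, SE; edgeR adjusted p = 0.00111) and the actin-bundling gene Fscn1 under the label (0.90 ± 0.17, SE; edgeR adjusted p = 0.00916). Of the 10 neutrophil markers, 9 were tested, and 5 fell with LPS in WT and 4 under the knockout label. The summed level of the mature migratory markers was 24480 to 27741 CPM in WT BMDCs with LPS and 19060 to 22482 CPM in knockout-labelled unstimulated BMDCs, against 10677 to 12619 CPM in WT unstimulated BMDCs, and that of the neutrophil markers 63.0 to 71.3 CPM and 90.4 to 97.0 CPM, against 112 to 174 CPM. Retnlg was at 0 in all 4 of these WT LPS and knockout-labelled unstimulated libraries and Elane in 1 WT LPS library. With LPS in WT, 5 of 10 macrophage markers rose and 2 fell, 1 of 7 monocyte markers rose and 4 fell, and 0 of 7 tested cDC2 markers rose and 2 fell. Of 7 tested plasmacytoid DC markers 1 rose and 1 fell, and none of the 5 B cell and 3 T cell markers tested passed. The part of these cell types in the Tlr3 and Tlr11 results was not tested.

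**Figure D4:**
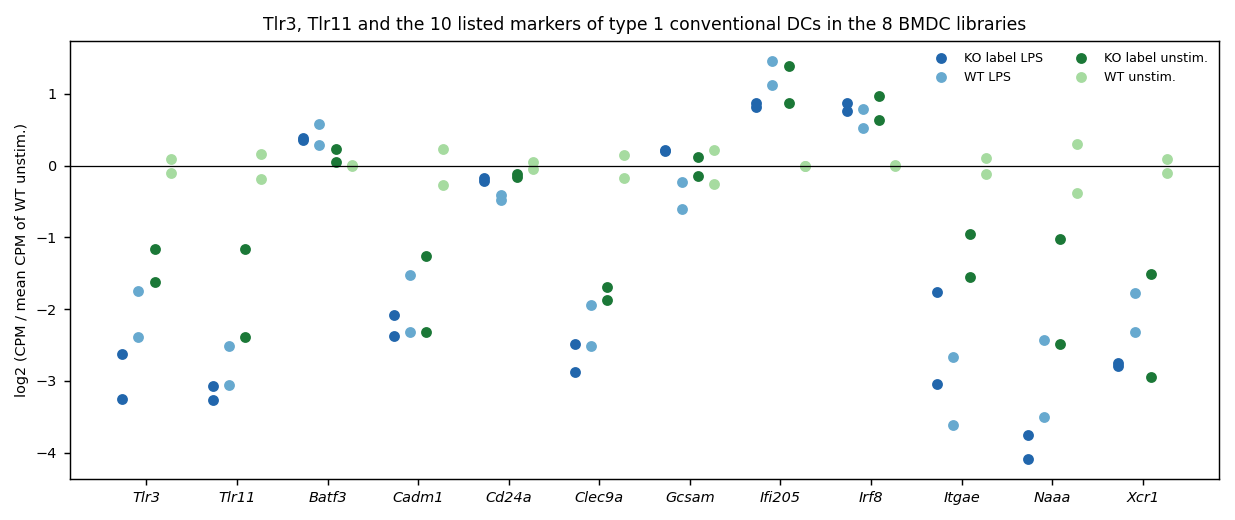
Log2 of the level of Tlr3, Tlr11 and the 10 listed cDC1 markers in each of the 8 BMDC libraries over the mean of WT unstimulated BMDCs. Tlr3, Tlr11 and Clec9a lie below 0 in all 6 other libraries, whereas Irf8 lies above 0 in all 6.

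Tlr12, which pairs with TLR11 in the recognition of profilin and was added after its values were seen, followed the same direction. It had 13.1 and 16.8 CPM in WT BMDCs with LPS and 27.2 and 33.2 CPM in knockout-labelled unstimulated BMDCs, against 52.3 and 52.0 CPM in WT unstimulated BMDCs. It fell by 1.81 ± 0.16 with LPS in WT (SE; edgeR adjusted p = 0.000282) and by 0.79 under the knockout label without stimulation (edgeR adjusted p = 0.00943).

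The genes whose pattern over the 8 BMDC libraries was most like that of the 4 members with the largest range of group means were found by Pearson r of log2 CPM, as a description over libraries that share their groups. They were Tpgs2, Abce1 and Farsb for Tlr11 (r = 0.998, 0.997 and 0.994), Nol11 and Heatr5a for Tlr3 (0.994 and 0.993), Zbtb8a, Col27a1 and Nsmf for Tlr2 (0.957, 0.953 and 0.950) and Naip2, Slc11a1 and Slc36a1 for Tlr8 (0.976, 0.974 and 0.972).

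Genes for the proteins that deliver ligands to TLRs or carry TLRs to endosomes were called in both directions. Of 10 listed chaperones and co-receptors, 9 were tested, and 2 rose and 5 fell with LPS in WT BMDCs (median log2 fold change -0.42), beside 20% and 17.6% of all tested genes. Cd14, which hands LPS to TLR4, had 85.9 and 97.5 CPM in WT BMDCs with LPS, against 27.6 and 44.2 CPM in WT unstimulated BMDCs (1.35 ± 0.30, SE; edgeR adjusted p = 0.0123). Unc93b1, which escorts the nucleic acid-reading receptors to endosomes, had 299 and 318 CPM in WT BMDCs with LPS, against 491 and 627 CPM in WT unstimulated BMDCs (-0.86 ± 0.14, SE; edgeR adjusted p = 0.00243). Cd14 thus rose while Tlr4 did not pass, and Unc93b1 fell while its client Tlr9 rose. Under the knockout label without stimulation 2 rose and 2 fell, beside 12% and 5.98% of all tested genes. Among these, Cd14 was at 2.02 ± 0.30 and Cd180, a TLR4-related regulator, at -1.22 ± 0.26 (log2 scale with SE; adjusted p by edgeR = 0.00661 and 0.0212).

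Of the 22 listed adaptors and proximal kinases, 10 rose and 0 fell with LPS in WT BMDCs (median log2 fold change 0.15), and 8 rose and 0 fell under the knockout label without stimulation (median 0.10). Over all tested genes 20% rose with LPS and 12% under the label. Irf7, the interferon regulatory factor downstream of TLR7 and TLR9 and itself interferon-induced, had 639 and 532 CPM in WT BMDCs with LPS and 391 and 249 CPM in knockout-labelled unstimulated BMDCs, against 20.04 and 29.5 CPM in WT unstimulated BMDCs. Its log2 fold changes were 4.56 ± 0.28 with LPS and 3.69 ± 0.27 under the label (SE; edgeR adjusted p = 0.000282 and 0.000697). Traf3 and Ticam1, which encodes TRIF, rose with LPS in WT by 1.19 ± 0.15 and 0.68 ± 0.09 on the log2 scale (SE; edgeR adjusted p = 0.000889 and 0.000911). In the test of the difference between both LPS effects, 0 were higher and 3 were lower, beside 0.566% and 3.91% of all tested genes. The 3 were Irf7 (-4.03 ± 0.35), Ikbke, a kinase that activates interferon regulatory factors (-1.61 ± 0.29), and Myd88 (-0.62 ± 0.13; SE; edgeR adjusted p = 0.00652, 0.0224 and 0.0378). 0 of the 22 were called for LPS in knockout-labelled BMDCs, where the smallest p was that of Traf6 (0.26 ± 0.09, SE; edgeR adjusted p = 0.160).

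Of the 10 negative regulators tested, 5 rose, 0 fell and 5 did not pass with LPS in WT BMDCs (median log2 fold change 0.50), beside the 20% of all tested genes that rose. Under the knockout label without stimulation the counts were again 5, 0 and 5 (median 0.43), beside 12% of all tested genes. With LPS in WT they included Socs1, an inhibitor of cytokine signalling (1.48 ± 0.18), Tnfaip3, an ubiquitin-editing inhibitor of NF-kB (0.85 ± 0.11), and Dusp1, a phosphatase of MAP kinases (1.39 ± 0.23), as log2 fold changes with SE (edgeR adjusted p = 0.000872, 0.000879 and 0.00314). Of the 13 genes of endosomal processing and ligand supply, 3 rose and 3 fell with LPS in WT, beside 20% and 17.6% of all tested genes. The protease gene Lgmn, whose product helps cleave TLR9, rose by 1.13 ± 0.16 and the nuclease gene Dnase1l3 by 3.34 ± 0.30, while the lysosomal nuclease gene Dnase2a fell by 0.84 ± 0.16 on the log2 scale (SE; edgeR adjusted p = 0.00115, 0.000478 and 0.00435).

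In the tumor, late against early tumoral DCs gave 0 called members of 10 by edgeR, beside 0.023% of all 13040 tested genes (3 genes). No member was under an unadjusted p of 0.05, against 1438 genes, and DESeq2 called 0 members and 311 genes. Tlr2 had 369 and 332 CPM in late tumoral DCs, against 216 and 585 CPM in early tumoral DCs. Its early libraries lay on either side of both late ones (log2 fold change -0.18 ± 0.45, SE). The smallest unadjusted p values were those of Tlr13, with 164 and 141 CPM in late tumoral DCs against 120 and 99.96 CPM in early tumoral DCs (0.49 ± 0.22, SE; edgeR adjusted p = 0.466), and of Tlr9, with 72.3 and 69.0 CPM in late tumoral DCs against 101 and 94.8 CPM in early tumoral DCs (-0.45 ± 0.21, SE; edgeR adjusted p = 0.474). Their groups did not overlap, nor did those of Tlr6, which had 24.3 and 22.3 CPM in late tumoral DCs against 15.9 and 17.7 CPM in early tumoral DCs, or of Tlr7, with 83.4 and 63.1 CPM in late tumoral DCs against 54.7 and 58.6 CPM in early tumoral DCs. The share of all tested genes whose stages did not overlap was not counted, so the lack of overlap shows no stage difference of these members.

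The remaining members overlapped between the stages. Tlr1 had 60.1 and 63.6 CPM in late tumoral DCs against 62.2 and 52.0 CPM in early tumoral DCs, and Tlr4 had 56.0 and 52.2 CPM in late tumoral DCs against 57.8 and 45.0 CPM in early tumoral DCs. Tlr8 was at 48.9 and 47.2 CPM in late tumoral DCs, against 66.6 and 42.9 CPM in early tumoral DCs. Tlr3 was at 23.5 and 35.3 CPM in late tumoral DCs, against 32.6 and 18.2 CPM in early tumoral DCs, and Tlr11 at 8.52 and 17.9 CPM in late tumoral DCs, against 16.5 and 13.8 CPM in early tumoral DCs. None of the members of the 4 pathway lists was called between the stages. The summed level of the T cell markers was 30.8 to 57.5 CPM in late tumoral DCs, against 223 to 328 CPM in early tumoral DCs, and Lck, a kinase of T cells, was called (-2.25 ± 0.23, SE; edgeR adjusted p = 0.0444).

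Set against WT unstimulated BMDCs in 1 fit of all 12 libraries, the 4 tumoral libraries had higher levels of Tlr1, Tlr2, Tlr4, Tlr6, Tlr7 and Tlr8 and lower levels of Tlr9 and Tlr11. These 6 higher and 2 lower of 10 stand beside 24.2% of 14004 tested genes higher and 27.5% lower (51.7% called in all), and the median log2 fold change of the members was 0.84, against -0.02 over all genes. Tumor, tissue, cell isolation and experiment cannot be told apart in this comparison. Tlr2 differed most, by 3.03 ± 0.44 on the log2 scale (SE; edgeR adjusted p = 0.000316), with 216 to 585 CPM in the 4 tumoral libraries, against 27.5 and 64.1 CPM in WT unstimulated BMDCs. Tlr8, at 42.9 to 66.6 CPM in the tumoral libraries against 19.4 and 17.0 CPM in WT unstimulated BMDCs, was higher by 1.49 ± 0.33, and Tlr7, at 54.7 to 83.4 CPM against 17.2 and 32.0 CPM in the same groups, by 1.39 ± 0.24 (log2 scale with SE; adjusted p by edgeR = 0.00352 and 0.000844). The surface members Tlr6 (1.29 ± 0.23), Tlr4 (1.04 ± 0.20) and Tlr1 (0.64 ± 0.14) were higher as well (log2 scale with SE; adjusted p by edgeR = 0.00102, 0.00157 and 0.00291).

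Tlr9 was lower, at 69.0 to 101 CPM in the tumoral libraries, against 115 and 116 CPM in WT unstimulated BMDCs (-0.48 ± 0.11, SE; edgeR adjusted p = 0.00517), and this call was lost without WT unstimulated replicate 1 (adjusted p = 0.0534). Tlr11 was at 8.52 to 17.9 CPM in the tumoral libraries, against 23.1 and 29.5 CPM in WT unstimulated BMDCs (-0.89 ± 0.34, SE; edgeR adjusted p = 0.0481). That call did not hold with RLE size factors (adjusted p = 0.0549) or when either early library, late replicate 1 or either WT unstimulated library was left out (adjusted p = 0.0585 to 0.247). Tlr3 and Tlr13 were not called (-0.66 ± 0.28 and 0.12 ± 0.18, SE; edgeR adjusted p = 0.0719 and 0.608). Summed over its members, the surface group stood at 352 to 700 CPM in the tumoral libraries, against 95.3 and 140 CPM in WT unstimulated BMDCs, while the endosomal group without Tlr11 stood at 314 to 393 CPM, against 339 and 303 CPM. Tlr2 alone held 216 to 585 CPM of the surface sum in the tumoral libraries. In the endosomal sum, Tlr7 and Tlr8 were higher and Tlr9 was lower, and Tlr13 was the largest member in both tumoral groups. The 2 sums therefore do not stand for each of their members.

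**Figure D5:**
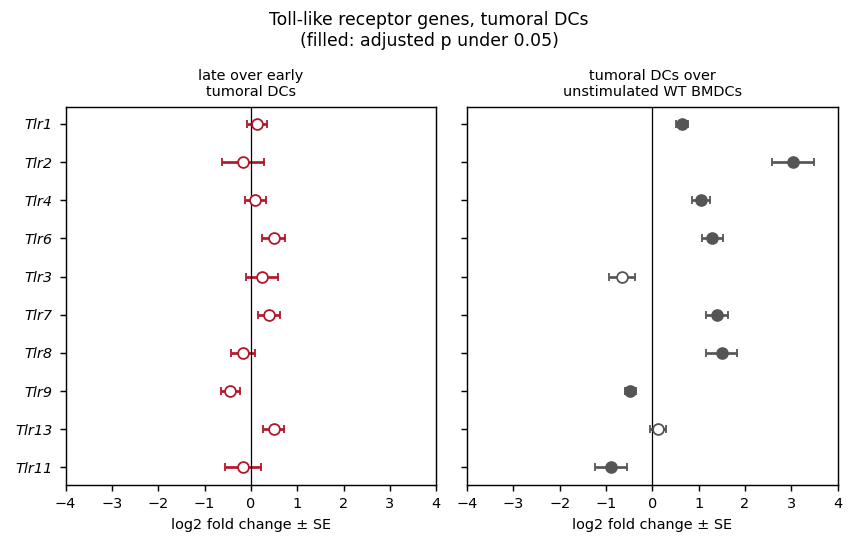
Log2 fold change ± SE of each Toll-like receptor gene for late over early tumoral DCs (2 libraries each) and for the 4 tumoral libraries over the 2 libraries of WT unstimulated BMDCs, filled where the adjusted p was under 0.05. No point is filled on the left, and Tlr2 lies farthest from 0 on the right, at 3.03.

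Markers of other myeloid cells moved with this comparison, in which 24.2% of all tested genes were higher and 27.5% lower. Of 10 macrophage markers, 9 were higher and 0 lower in the tumoral libraries, with a summed level of 5510 to 11252 CPM, against 1029 to 1125 CPM in WT unstimulated BMDCs and none at 0. C1qa, a complement gene of macrophages, had 846 to 2725 CPM in the tumoral libraries, against 5.88 and 3.07 CPM in WT unstimulated BMDCs. Of 7 monocyte markers, 6 were higher and 0 lower, with a sum of 2250 to 4431 CPM in the tumoral libraries, against 315 to 610 CPM in WT unstimulated BMDCs. All 6 tested T cell markers, 5 of 8 cDC2 markers and 4 of 8 plasmacytoid DC markers were higher, and 1 cDC2 marker was lower. All 8 markers of mature migratory DCs were lower in the tumoral libraries, and of the 8 core conventional DC markers 4 were lower, 1 was higher and 3 were not called. Itgax, an integrin of DCs and other myeloid cells, was higher by 1.39 ± 0.15 (SE; edgeR adjusted p = 3.78e-05), and Zbtb46, the gene of the sorting reporter, was lower by 2.08 ± 0.25 on the log2 scale (SE; edgeR adjusted p = 9.48e-05). What these cells contribute to the TLR levels was not tested. Among the pathway lists, 5 chaperones and co-receptors were higher and 1 lower of 10, with Cd14 higher by 4.97 ± 0.67, and 6 adaptors and proximal kinases were higher and 9 lower of 22, with Myd88 higher by 1.42 ± 0.12 and Ikbkb, a kinase of the NF-kB pathway, lower by 1.34 ± 0.19 (log2 scale with SE; adjusted p by edgeR = 0.000199, 1.18e-05 and 0.000235).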

How the data were processed

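RNA was measured in 12 mouse libraries, 2 per group, built with an Illumina TruSeq RNA kit according to the labels' protocols. The authors deposited raw counts by gene symbol, in 1 table of 4 tumoral and 1 of 8 BMDC libraries. Per the submitters' processing notes, fastp 0.12.4, HISAT2 2.2.1, featureCounts 2.0.1 and mm10 were used. How the counting handled strand and multi-mapping reads, and with which annotation, is not given in the sources used here. The labels call the cells only immune cells, and their extraction text speaks of retinas, so the extraction of RNA from these cells is not described. A time of 9 days stands in the BMDC labels and entered no test.

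Counts were analysed in R 4.3.3 with edgeR 4.0.16 (filterByExpr with minimum count 10, TMM, robust glmQLFit, glmQLFTest, two-sided), with 1 fit per table and a mean per group. This left 13040 tumoral and 13072 BMDC genes, and p-values were adjusted over all of them with the Benjamini-Hochberg method. The 2 tables were joined in 1 fit of 14004 genes for the comparison of tumoral DCs with BMDCs and for the scale of CPM values. The SE was taken as the absolute log2 fold change over the square root of F. Levels per kb use merged GENCODE M21 exons. All columns were mapped to samples by name. The libraries of each group differed by more than counting noise and were kept as 2 samples, which does not show whether they are separate cultures or animals. The steps were tested on simulated data. The deviations of same-numbered libraries had correlations from -0.2 to 0.275, the highest between WT unstimulated and WT with LPS. This check cannot decide whether same-numbered libraries were paired, and the main fits held no pairing.

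The 10 members and the pathway and marker lists were chosen with earlier results of these data known. Of 138 listed genes 137 were in the tables. Text names all members, and per list and comparison at most the 3 called genes with the smallest p in each direction, or the gene with the smallest p where none was called, and markers set beside a member. Tlr12 was added after its values were seen. Another gene with a pattern like that of a member is not reported here. Alternatives were DESeq2 1.42.0, RLE size factors, library size alone, no filter, a replicate block, the joint fit and leaving out each library in turn.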

Additional observations from a re-analysis of the deposited data

Results flagged for a closer look

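No member passed the test of a difference between the LPS effects in knockout-labelled and WT BMDCs, beside 4.48% of all tested genes. In the pathway lists, 3 of 22 adaptors and proximal kinases and 1 of 13 genes of endosomal processing and ligand supply passed. Of the chaperones and co-receptors 0 of 9 tested passed, and of the negative regulators 0 of 10. Tlr12, added after its values were seen, passed as well. These counts show no contrast between the members and the genes around them. Each value below is the knockout-labelled minus the WT log2 fold change. Irf7 differed by -4.03, with an LPS log2 fold change of 0.53 in knockout-labelled and 4.56 in WT BMDCs. Dnase1l3 differed by -2.06, with 1.29 in knockout-labelled and 3.34 in WT BMDCs. For Ikbke the difference was -1.61, with -0.39 in knockout-labelled and 1.22 in WT BMDCs. Myd88 differed by -0.62, with -0.02 in knockout-labelled and 0.60 in WT BMDCs. Tlr12, whose difference was 1.19, had -0.62 in knockout-labelled and -1.81 in WT BMDCs. The edgeR adjusted p values of these 5 differences lay between 0.00652 and 0.0378.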

How the results depend on the processing

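With 2 libraries per group, each result rests on few samples. Of 950 member values under the alternatives, 904 kept their side of the threshold, 17 lost a call and 29 gained one, and 0 called values changed sign. Another 37 values that were never called did change sign. With DESeq2 the count of called members moved beyond 1.5 times for 4 comparisons. It was 2 for LPS in knockout-labelled BMDCs, 1 for the knockout label with LPS, 1 for the difference between LPS effects and 2 for knockout-labelled unstimulated against WT LPS-treated BMDCs, in place of 0 each. With no filter on low counts these were 1, 1, 1 and 2. Leaving out 1 library at a time gave 0 to 2 called members for LPS in knockout-labelled BMDCs, 1 to 3 for the knockout label without stimulation, 0 to 2 for the difference between LPS effects, 0 to 1 for knockout-labelled unstimulated against WT LPS-treated BMDCs, 4 to 6 for LPS in WT, 3 to 5 for knockout-labelled LPS-treated against WT unstimulated BMDCs, 6 to 9 for tumoral DCs against BMDCs and 0 for late against early tumoral DCs. Where a group was left with 1 library, that library is assumed to vary like the other groups. The fit with the replicate block gave 4 called members for LPS in WT in place of 5, with Tlr2 lost (log2 fold change 1.15, adjusted p = 0.0796), and changed the call of no other member. Scaling by library size alone moved the median of all genes against TMM by -0.20 for LPS in WT, -0.18 for knockout-labelled LPS-treated against WT unstimulated BMDCs, -0.10 for the knockout label without stimulation, 0.13 for the difference between LPS effects and -0.11 for late against early tumoral DCs, and by less than 0.1 in the other comparisons. The causes of these shifts were not tested. Tlr11, with 43 to 76 counts in each LPS-treated library, is the member with the fewest counts.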

Other observations

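Tlr5, the flagellin receptor, was in the tables and is no member. It had 5.02 to 12.1 CPM in the 4 tumoral libraries, against 0.728 and 0.454 CPM in WT unstimulated BMDCs. Rnaset2a, which encodes a ribonuclease that prepares RNA for TLR8 in human cells, had 1.09 to 1.80 CPM in the 4 tumoral libraries, against 58.9 and 44.7 CPM in WT unstimulated BMDCs, and was at 28.7 to 43.7 CPM in the other 6 BMDC libraries. Its near-identical neighbour Rnaset2b had 0.351 to 1.42 CPM in the tumoral libraries, against 2.91 and 1.42 CPM in WT unstimulated BMDCs. How reads shared by the pair were counted is not known.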
